A study of Mus musculus with 2 samples.

Results

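The 5 genes *Klk10*, *Shisa9*, *Fam107a*, *Ppl* and *Atp2b2* are described here across the cell types of the mouse abdominal aorta. The deposited matrices hold 33696 genes, of which 6501 had enough UMIs in vascular endothelial cells (VECs) to be ranked there (200 UMIs or more, found in 10% of the VECs of a library), and the 5 have the lowest ratios of AngII+HS to Control among these. They were chosen by these measured ratios, so that contrast is given as a description. The suprarenal abdominal aorta of male C57BL/6J mice aged 5 months was digested to single cells on day 28, either after normal saline (Control) or after angiotensin II infused at 1500 ng/kg/min with 0.9% NaCl and 0.2% KCl in the drinking water (AngII+HS), a model of abdominal aortic aneurysm. Each condition gave 1 droplet-based library. The design text describes it as pooled from 5 mice, but the protocol names 1 mouse for the Control and 2 for AngII+HS. Counts are of unique molecular identifiers (UMIs), that is, of captured RNA molecules. With 1 library per condition there is no replicate check and no test. The intervals are 95% exact intervals that cover counting error only, and a difference between the libraries may be one between animals or preparations.

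Endothelial cells line blood vessels and sense the shear stress of flowing blood. Steady flow in arteries keeps them quiescent through transcription factors such as KLF2 and KLF4, whereas disturbed flow turns on inflammatory genes. Arterial, capillary and venous endothelial cells differ in the genes they use, and *Gja5*, *Bmx* and *Efna5* mark the arterial ones, *Gpihbp1* the capillary ones and *Selp* the venous ones. *Klk10* encodes a secreted member of the kallikrein-related serine protease family that is known as a flow-sensitive gene of endothelium. *Shisa9* encodes an auxiliary subunit of AMPA-type glutamate receptors. *Fam107a* encodes an actin-associated protein that responds to stress and glucocorticoids. *Ppl* encodes periplakin, which links intermediate filaments to cell junctions. *Atp2b2* encodes a pump that moves calcium out of the cell across the plasma membrane.

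The genes lie on 4 chromosomes and differ widely in length (GRCm39, GENCODE annotation). *Klk10* spans 6346 bases on the plus strand of chromosome 7, from 43430448 to 43436793. *Fam107a* spans 21758 bases on the plus strand of chromosome 14, from 14151750 to 14173507. *Ppl* spans 46223 bases on the minus strand of chromosome 16, from 4904155 to 4950377. *Shisa9* spans 286790 bases on the plus strand of the same chromosome, from 11801977 to 12088766. *Atp2b2* spans 300257 bases on the minus strand of chromosome 6, from 113720766 to 114021022. RefSeq promoters, taken from a table built on GRCm38.p6, were given for 3 of the 5 genes, and each was found unchanged once in its GRCm39 chromosome. They are shown because factors that answer to flow (KLF), that act in endothelial identity (SOX) and that answer to glucocorticoids (the glucocorticoid receptor) bind short motifs of this kind. Capitals mark CACCC (KLF), ACAAT (SOX) and AGAACA (a half-site of the glucocorticoid receptor) on either strand, with no overlap between motifs, and each sequence stops before the first annotated exon base.
Klk10, chr7:43430228-43430447, plus strand: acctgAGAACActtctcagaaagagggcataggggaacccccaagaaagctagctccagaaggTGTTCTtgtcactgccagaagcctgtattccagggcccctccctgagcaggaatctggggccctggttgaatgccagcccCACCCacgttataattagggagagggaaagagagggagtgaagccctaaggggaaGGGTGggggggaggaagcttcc
Fam107a, start 2, chr14:14159744-14159876, plus strand: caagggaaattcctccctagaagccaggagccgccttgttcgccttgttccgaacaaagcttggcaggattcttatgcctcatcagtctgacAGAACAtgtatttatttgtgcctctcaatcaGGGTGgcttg
Atp2b2, start 2, chr6:113911747-113911892, minus strand: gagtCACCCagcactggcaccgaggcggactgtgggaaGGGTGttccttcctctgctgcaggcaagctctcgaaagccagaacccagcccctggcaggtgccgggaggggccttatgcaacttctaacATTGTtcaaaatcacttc
Atp2b2, start 3, chr6:113868548-113868750, minus strand: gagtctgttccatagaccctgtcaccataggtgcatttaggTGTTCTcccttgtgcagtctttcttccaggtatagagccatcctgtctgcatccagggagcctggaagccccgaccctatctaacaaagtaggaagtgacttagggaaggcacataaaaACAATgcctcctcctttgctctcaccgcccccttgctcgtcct

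In the 250 bases that the table gives before its start, *Klk10* held 2 matches to CACCC, 2 to AGAACA and none to ACAAT. Start 2 of *Fam107a* held 1 match to CACCC and 2 to AGAACA, of which the printed part holds 1. Start 2 of *Atp2b2* held 2 matches to CACCC and 3 to ACAAT, of which the printed part holds 1, and start 3 held 1 to ACAAT and 1 to AGAACA. Start 1 of *Fam107a* and of *Atp2b2*, not printed, held 4 and 2 matches to CACCC and none to the other motifs. Among the 32851 mouse promoters of this length in the table, 52.0% held CACCC, 27.7% held ACAAT and 16.1% held AGAACA, so a single match is common. At least 2 matches were held by 21.1% of promoters for CACCC, 6.59% for ACAAT and 1.81% for AGAACA. These are matches of letters and not measured binding.

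After filtering and removal of doublets, 10269 Control and 19734 AngII+HS cells were kept, with medians of 7274 and 3065.5 UMIs. VECs numbered 838 in the Control and 1203 in the AngII+HS library. Arterial-like cells made up 58.7% of the VECs (492 cells) in the Control and 33.4% (402 cells) in the AngII+HS library. Capillary-like cells numbered 139 and 425, and venous-like cells 165 and 348. The barcode list recorded with each sample has as many lines as the other sample's matrix (67 barcodes are in both lists), and the matrices were used under the sample they are recorded with. A swap of the matrices would reverse every direction given here. In the library recorded as AngII+HS, neutrophils made up 23.6% of the cells (0.964% in the Control), macrophages 22.5% (4.66%) and vascular smooth muscle cells (VSMCs) 4.51% (53.2%), and its 166 plasma cells had no counterpart in the Control.

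Markers of the arterial subtype, which also named the arterial-like cells, were high in both libraries. In the arterial-like cells, *Gja5* stood at 545 counts per 1000000 UMIs (CPM) in the Control and 526 CPM in the AngII+HS library, *Bmx* at 450 and 429 CPM, and *Efna5* at 1036 and 1311 CPM. Their median depth was 4519 and 4719.5 UMIs per cell, and the median mitochondrial share of the UMIs was 3.29% in the Control and 1.44% in the AngII+HS library. The 10 arterial markers summed to 7884 CPM in the Control and 12266 CPM in the AngII+HS library. These include *Fbln5*, *Eln* and *Fn1*, which encode proteins of the extracellular matrix. *Fbln5* stood at 618 CPM in the Control and 1934 CPM in the AngII+HS library, so the sum does not measure arterial identity alone. Markers of other cells also differed in the arterial-like cells. Capillary markers summed to 106 CPM in the Control and 366 CPM in the AngII+HS library, and venous markers to 2054 and 3210 CPM. The summed level of 6 neutrophil markers was 9.76 CPM in the Control (*Cxcr2* at 0) and 221 CPM in the AngII+HS library (none at 0), that of 6 fibroblast markers 324 and 837 CPM (none at 0 in either), and that of 6 macrophage markers 19.1 and 70.3 CPM (none at 0 in either). The sum of 6 VSMC markers was 803 and 1195 CPM, where *Acta2* and *Tagln* had more UMIs in the AngII+HS library and *Myh11*, *Cnn1*, *Lmod1* and *Myocd* fewer. The part of these markers and of the mitochondrial share in the differences below was not tested.

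All 5 genes were much lower in the VECs of the AngII+HS library, which is how they were chosen. *Klk10* had 799 UMIs (184 CPM) in the Control and 42 UMIs (6.79 CPM) in the AngII+HS library, which is 27.2-fold lower. *Shisa9* had 433 and 55 UMIs (11.2-fold lower in CPM), and *Fam107a* 511 and 71 UMIs (118 and 11.5 CPM, 10.3-fold lower). *Ppl* had 192 and 31 UMIs (44.3 and 5.01 CPM, 8.85-fold lower). The last gene inside the choice was *Atp2b2*, with 493 and 83 UMIs (114 and 13.4 CPM) and a log2 ratio of -3.09. The first gene outside it was *Pcolce2*, with 441 and 86 UMIs and a log2 ratio of -2.87. Of the 6501 genes ranked in VECs, 3.41% were at least 2-fold lower, and since this contrast chose the genes nothing is read from their count.

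Among the VECs of the Control library, most UMIs of the 5 genes lay in arterial-like cells. This is a description too, since arterial-like cells were a smaller share of the VECs in the AngII+HS library and a low ratio in VECs therefore favours arterial genes. The arterial-like cells held 92.8% of the UMIs of the 5 genes in Control VECs, but 73.2% with finer subclustering, which left a *Klk10*-led subcluster unnamed, and 24.4% with a marker gate that took 144 Control cells as arterial-like. By gene the share was 98.7% for *Klk10* (95% interval 97.7% to 99.4%), 97.6% for *Atp2b2* (95.8% to 98.7%), 89.6% for *Shisa9* (86.3% to 92.3%), 88.0% for *Ppl* (82.6% to 92.3%) and 83.4% for *Fam107a* (79.8% to 86.5%). Most of the rest lay in venous-like cells, where *Fam107a* had 75 UMIs and *Shisa9* 44 UMIs. Capillary-like cells held between 1 and 6 UMIs of each gene. *Klk10* and *Atp2b2* thus separated the subtypes most sharply, and *Fam107a* and *Shisa9* extended into venous-like cells.

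**Figure D1:**
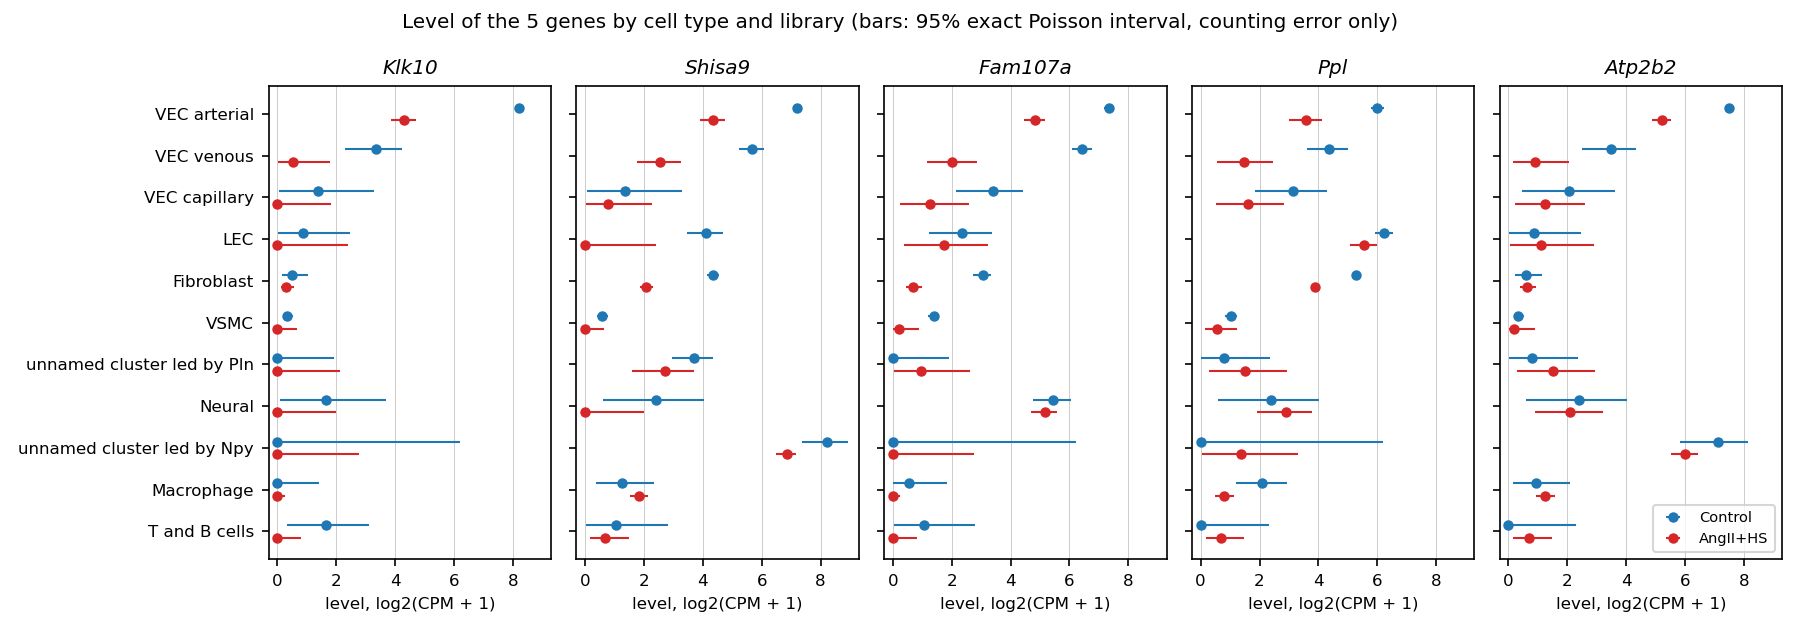
Level of each gene by cell type and library, as log2(CPM + 1) on the horizontal axis, with blue points for Control, red points for AngII+HS and bars for the 95% exact Poisson interval (counting error only). In arterial-like VECs every gene lies lower in the AngII+HS library, as for *Klk10* at 296 and 18.7 CPM, while *Fam107a* in neural cells (42.5 and 34.7 CPM) has overlapping intervals.

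Taken within arterial-like VECs, where the shares of the subtypes do not enter, all 5 genes were again lower in the AngII+HS library. *Klk10* had 789 UMIs (296 CPM) in the Control and 41 UMIs (18.7 CPM) in the AngII+HS library, a log2 ratio of -3.98 (-4.47 to -3.53). *Shisa9* had 388 and 42 UMIs (146 and 19.2 CPM), a log2 ratio of -2.93 (-3.42 to -2.46). *Fam107a* had 426 and 60 UMIs (160 and 27.4 CPM), a log2 ratio of -2.55 (-2.96 to -2.15). The intervals of the 2 libraries were far apart for each of these genes. *Ppl* had 169 and 24 UMIs (63.4 and 11.0 CPM), a log2 ratio of -2.53 (-3.22 to -1.91). *Atp2b2* had 481 and 79 UMIs (181 and 36.1 CPM), a log2 ratio of -2.32 (-2.69 to -1.98). Transcripts of every gene were still present, between 24 and 79 UMIs in the AngII+HS library. Of the 8615 genes with at least 50 UMIs in these cells, 3.01% were at least 2-fold lower, and the median log2 ratio of all of them was 0.04. The arterial-like cells are part of the VECs that chose the genes, so their count of 5 of 5 is a description as well.

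**Figure D2:**
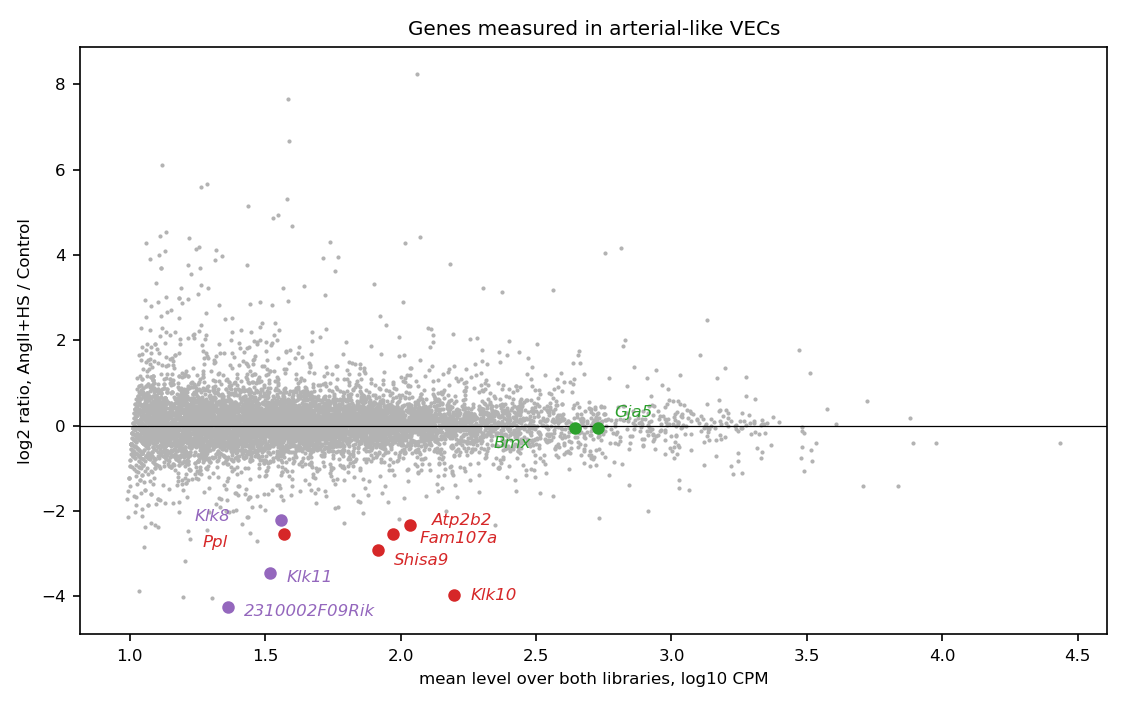
Log2 ratio of AngII+HS to Control (vertical axis) against the mean level in both libraries (horizontal axis, log10 CPM) for genes measured in arterial-like VECs, leaving out genes with no UMI in a library. The 5 genes are red and lie between -3.98 and -2.32, other genes of the *Klk10* neighbourhood are purple, and the arterial markers *Gja5* and *Bmx* (green) lie at -0.05 and -0.07.

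Exchanging only the subtype shares gave smaller differences between the libraries than those in VECs as a whole. The shares used for this are of the UMIs of VECs and not of the cells. With the subtype shares of the Control library applied to the AngII+HS levels, the VEC log2 ratio was -3.99 for *Klk10*, -2.94 for *Shisa9*, -2.72 for *Fam107a*, -2.58 for *Ppl* and -2.33 for *Atp2b2*. With the Control levels kept and the AngII+HS shares applied to them, it was -0.76, -0.51, -0.37, -0.48 and -0.73 for the same genes in that order.

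The 3 subclusters of arterial-like cells, made without the 5 genes and without the subtype markers, each showed lower values. In the largest, with 311 Control and 217 AngII+HS cells and *Ptprj* followed by *Klk10* as its leading genes, *Klk10* stood at 422 and 34.9 CPM. In another, led by *Cish* (105 and 106 cells), *Klk10* stood at 221 and 6.69 CPM and *Fam107a* at 204 and 24.5 CPM. In the smallest, led by *Alpl* (76 and 79 cells), *Klk10* stood at 107 and 5.78 CPM and *Atp2b2* at 178 and 40.4 CPM. There *Shisa9* had only 5 and 1 UMIs and *Ppl* 7 and 2, and the intervals of their ratios held 0. *Shisa9* thus varied most among the arterial-like cells of the Control library, from 12.7 CPM in the *Alpl*-led to 181 CPM in the *Ptprj*-led subcluster, while *Atp2b2* stayed between 175 and 188 CPM.

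**Figure D3:**
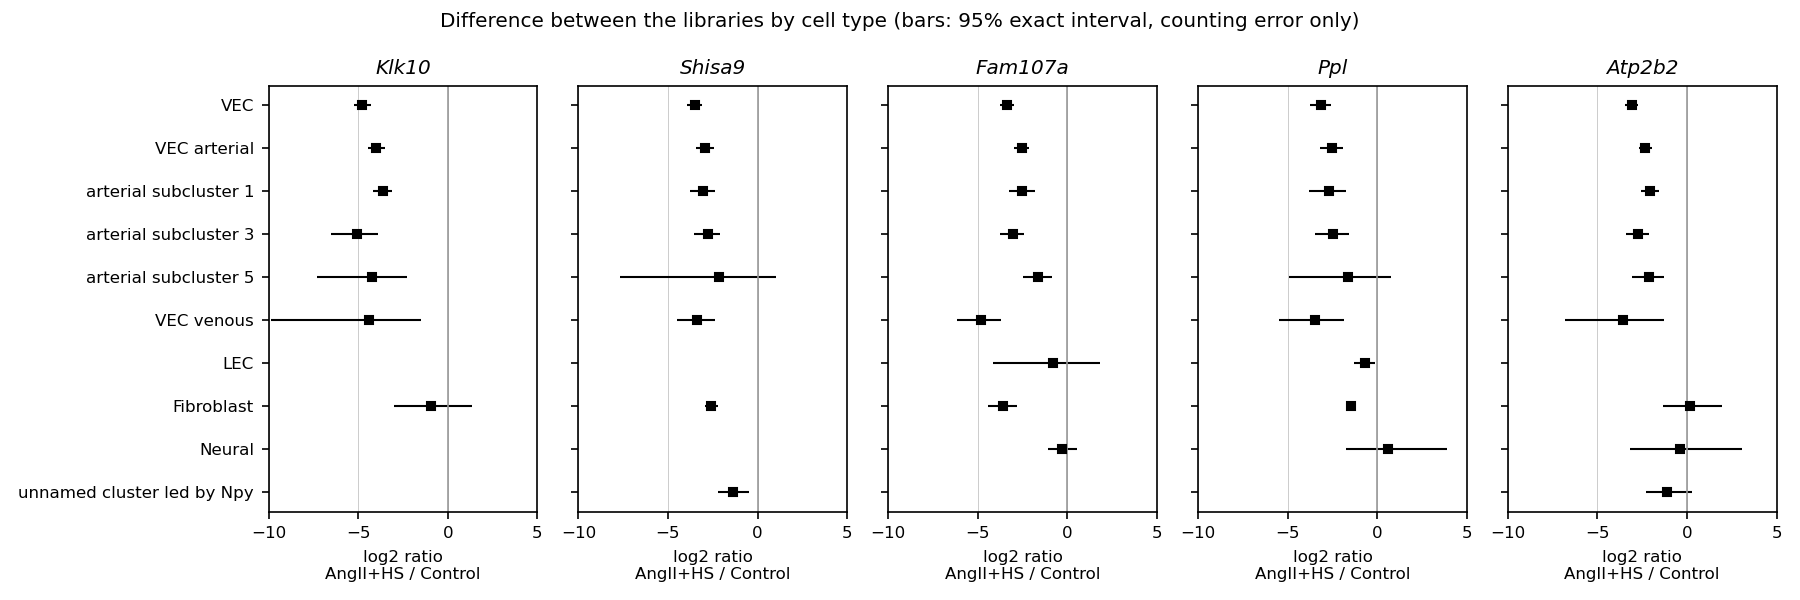
Log2 ratio of AngII+HS to Control (horizontal axis) for each gene by cell type and arterial subcluster, with bars for the 95% exact interval (counting error only), left out where a library had no UMI or neither had more than 3; arterial subclusters 1, 3 and 5 are those led by *Ptprj*, *Cish* and *Alpl*. All ratios in VECs and their arterial and venous subsets are below 0, and for *Shisa9* and *Ppl* in arterial subcluster 5 the interval crosses 0.

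Counted per cell, fewer arterial-like VECs carried a UMI of these genes, and the mean count in those that did was lower. In the Control library 257 of 492 cells (52.2%) had a *Klk10* UMI, against 19 of 402 (4.73%) in the AngII+HS library. The shares were 48.4% and 15.2% for *Atp2b2*, 44.5% and 12.2% for *Fam107a*, and 28.3% and 6.47% for *Shisa9*, and *Ppl* was found in 123 and 23 cells. The highest count in a cell was 20 and 5 UMIs for *Klk10*, 16 and 4 for *Shisa9*, and 11 and 3 for both *Fam107a* and *Atp2b2*. Among cells with a UMI, the mean was 3.07 and 2.16 UMIs for *Klk10* and 2.02 and 1.30 UMIs for *Atp2b2*. The median in such cells was 2 in both libraries for *Klk10*, 1 in both for *Fam107a*, *Ppl* and *Atp2b2*, and 2 and 1 for *Shisa9*. At least 5 *Klk10* UMIs were found in 55 Control cells and in 1 AngII+HS cell. The 49 Control cells richest in each gene held 66.2% of the *Shisa9* UMIs and 47.0% of those of *Klk10*.

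With each cell thinned to 1000 UMIs, which left out 10 Control and 13 AngII+HS cells as too shallow, the shares with a UMI were 21.4% and 1.54% for *Klk10*, 14.9% and 4.63% for *Atp2b2*, 11.0% and 1.29% for *Shisa9*, 9.96% and 3.34% for *Fam107a*, and 5.60% and 1.54% for *Ppl*. At least 1 of the 5 genes was detected in 235 of 482 Control cells (48.8%, 44.2% to 53.3%) and in 43 of 389 AngII+HS cells (11.1%, 8.12% to 14.6%). At least 2 were detected in 12.4% and 1.29% of the cells. T and B cells, which should lack these transcripts, gave the level of free RNA: at least 1 gene was detected in 0.441% and 0.248% of them after thinning. Without thinning the shares were 86.4% and 32.3% in arterial-like VECs, and 1.30% and 0.430% in T and B cells (median 3779 and 2130.5 UMIs). The shares in the arterial-like cells of the AngII+HS library thus lay above this background.

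**Figure D4:**
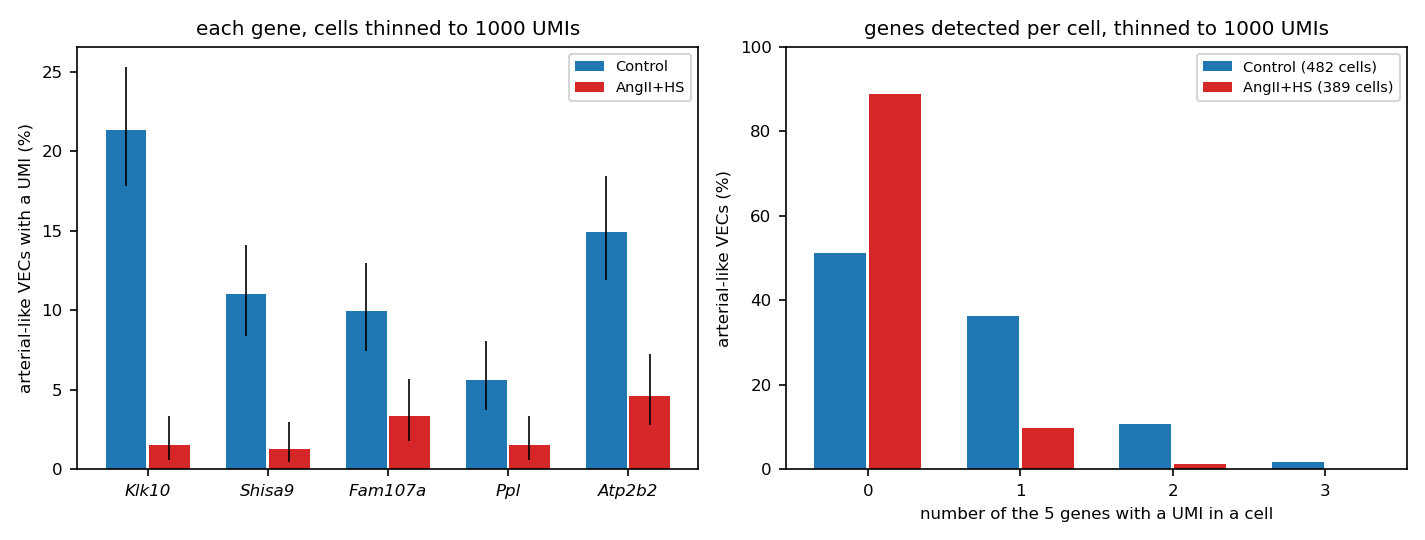
Left, percent of arterial-like VECs with a UMI of each gene, and right, percent of these cells with 0 to 3 of the 5 genes detected, in cells thinned to 1000 UMIs (blue Control, 482 cells, red AngII+HS, 389 cells, bars on the left for 95% exact binomial intervals). No UMI of the 5 genes was found in 51.2% of Control cells, against 88.9% in the AngII+HS library.

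Detection of the genes in the same Control cell was uneven. Among thinned arterial-like cells, *Shisa9* was found in 19 of 103 cells with a *Klk10* UMI (18.4%) and in 34 of 379 without one (8.97%). *Atp2b2* was found in 16.5% and 14.5% of the same cells. No cell of the 53 with a *Shisa9* UMI had a *Ppl* UMI, against 27 of the 429 without one, at counts too low to read more from.

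Venous-like VECs held the 5 genes at a lower level, and lower again in the AngII+HS library. *Fam107a* had 75 UMIs (85.3 CPM) in the Control and 7 UMIs (3.07 CPM) in the AngII+HS library, a log2 ratio of -4.80 (-6.16 to -3.68). *Shisa9* had 44 and 11 UMIs (50.1 and 4.82 CPM), a log2 ratio of -3.38 (-4.48 to -2.40). *Klk10* had 8 and 1 UMIs, *Ppl* 17 and 4, and *Atp2b2* 9 and 2. All 9 *Atp2b2* UMIs and 7 of the 8 *Klk10* UMIs of the Control venous-like cells came from 1 cell each. In the *Csf3*-led venous subcluster *Fam107a* had 47 and 4 UMIs, and in the *Adarb2*-led one 28 and 3. *Shisa9* differed between them. It had 18 and 1 UMIs in the *Csf3*-led subcluster (95 Control and 259 AngII+HS cells), a log2 ratio of -5.95 (-11.33 to -3.28), and 26 and 10 UMIs (92.3 and 42.5 CPM) in the *Adarb2*-led one (70 and 89 cells), a log2 ratio of -1.12 (-2.33 to -0.02). Of the 7194 genes measured in venous-like cells, 6.38% were at least 2-fold lower. Venous-like cells are also VECs, so these values are part of the contrast that chose the genes.

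Outside blood vessel endothelium the genes went separate ways. *Klk10* was nearly confined to VECs, which held 97.3% of its 821 UMIs in the Control library, and *Atp2b2* followed with 93.9% of 525. VECs held 73.2% of the *Fam107a* UMIs, 61.3% of those of *Shisa9* and 26.7% of those of *Ppl*. Fibroblasts held the largest share of *Ppl*, 51.3%, and 26.8% of *Shisa9*. In the AngII+HS library, where VECs were a smaller part of the cells, they held 87.5% of the 48 *Klk10* UMIs, 52.2% of those of *Fam107a*, 46.1% of those of *Atp2b2*, 19.6% of those of *Shisa9* and 6.2% of those of *Ppl*. By level, *Klk10* stood at 296 CPM in arterial-like VECs of the Control library and next at 9.10 CPM in venous-like ones, with intervals that did not overlap. *Ppl* stood highest in lymphatic endothelial cells (LECs) at 74.4 CPM, which overlapped with arterial-like VECs at 63.4 CPM, and next in fibroblasts at 37.7 CPM.

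Lymphatic endothelial cells, which were not used to choose the genes, showed a smaller difference in *Ppl*. It had 92 UMIs (74.4 CPM) in the Control and 39 UMIs (45.7 CPM) in the AngII+HS library, a log2 ratio of -0.70 (-1.28 to -0.15). The interval does not overlap with that in arterial-like VECs. Since *Ppl* was chosen by its low ratio in VECs, a smaller difference in LECs follows in part from the choice, and nothing is read from it. *Shisa9* had 20 UMIs in the Control and 0 in the AngII+HS LECs. With 3 counts as the limit that a count of 0 allows, it was 4.60-fold lower. That value takes the Control count as exact, so the difference may be smaller. The interval of the Control level starts at 9.88 CPM, and that of the AngII+HS level ends at 4.32 CPM. The 20 UMIs came from 10 cells, of which 1 held 7 UMIs. *Klk10* and *Atp2b2* had at most 1 UMI in LECs of either library.

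Fibroblasts also were not used to choose the genes, and 3 of them were lower there. *Fam107a* had 71 UMIs (7.26 CPM) in the Control and 17 UMIs (0.603 CPM) in the AngII+HS library, a log2 ratio of -3.59 (-4.45 to -2.81). *Shisa9* had 189 and 91 UMIs (19.3 and 3.23 CPM), a log2 ratio of -2.58 (-2.96 to -2.21). *Ppl* had 369 and 388 UMIs (37.7 and 13.8 CPM), a log2 ratio of -1.45 (-1.66 to -1.24). Of the 13583 genes measured in fibroblasts, 5.99% were at least 2-fold lower. The libraries filled the fibroblast clusters unequally: a *Comp*-led cluster held 435 Control and 2137 AngII+HS cells, and a *Prg4*-led one 0 and 164. *Ppl* stood at 35.5 and 12.8 CPM in the *Comp*-led cluster, and at 17.3 and 11.1 CPM in a *Dio2*-led one (804 and 1111 cells), in the latter with intervals that overlapped. *Ppl* and *Shisa9* stood highest in 1 fibroblast cluster led by *Sdk1* (724 Control and 858 AngII+HS cells), *Ppl* at 63.0 and 28.2 CPM and *Shisa9* at 39.1 and 14.9 CPM. *Klk10* had 4 and 6 UMIs and *Atp2b2* 5 and 16 UMIs in fibroblasts, and the intervals of their ratios held 0.

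*Fam107a* in neural cells had too few UMIs to settle whether it differed between the libraries. It had 20 UMIs (42.5 CPM) in the Control and 43 UMIs (34.7 CPM) in the AngII+HS library, a log2 ratio of -0.29 (-1.09 to 0.55). That interval holds 0 and also a 2-fold lower value. In the AngII+HS library neural cells thus stood first in *Fam107a* level, with an interval that overlapped with arterial-like VECs at 27.4 CPM. A small unnamed cluster led by *Npy* (5 Control and 43 AngII+HS cells) carried *Shisa9* at 297 and 114 CPM and *Atp2b2* at 138 and 63.2 CPM, from 15 and 72 and from 7 and 40 UMIs. In macrophages, far more numerous in the AngII+HS library, *Shisa9* had 3 and 50 UMIs (1.37 and 2.57 CPM) and *Atp2b2* 2 and 27 UMIs (0.915 and 1.39 CPM), and the intervals of both ratios held 0. Macrophages thus held 17.8% of all *Shisa9* UMIs of the AngII+HS library. In VSMCs *Fam107a* had 88 UMIs (1.62 CPM) in the Control and 1 UMI (0.154 CPM) in the AngII+HS library, a log2 ratio of -3.39 with a wide interval (-8.71 to -0.88).

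Genes with a similar pattern over the cell types and libraries did not all share the difference in arterial-like VECs. Pearson's r of log2(CPM + 1) was taken over 28 groups of cell type and library, which share libraries and differ in depth, as a description. Both libraries of each VEC subtype are among the groups, so the difference that chose the genes is part of r. *Klk10* was most like *Gkn3* (r = 0.922), *Atp2b2* (r = 0.895) and *Adh7* (r = 0.854). In arterial-like VECs *Gkn3* had a log2 ratio of -1.15 and *Adh7* one of -0.36. *Atp2b2* was most like *Klk10*, *Gkn3* and *Plek2*, the last with a log2 ratio of -1.43. *Shisa9* was most like *Myrip* (r = 0.816), *Kcnt2* and *Cytl1*, with log2 ratios of -1.67, 0.87 and -1.41. *Fam107a* was most like *Dhh* (r = 0.853), *Myrip* and *Itgb4*, with log2 ratios of -1.30, -1.67 and -0.03. *Ppl* was most like *Ackr3* (r = 0.867), *Col23a1* and *Cp*, with log2 ratios of -1.39, 0.86 and -0.73.

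The neighbours of *Klk10* on chromosome 7 were lower as well. Of the 12 genes within 100 kb of *Klk10*, 3 had at least 50 UMIs in arterial-like VECs, and all 3 were at least 2-fold lower, where 3.01% of all genes were. *Klk11* had 161 UMIs (60.4 CPM) in the Control and 12 UMIs (5.48 CPM) in the AngII+HS library, a log2 ratio of -3.46 (-4.45 to -2.62). *Klk8* had 159 and 28 UMIs (59.7 and 12.8 CPM), a log2 ratio of -2.22 (-2.86 to -1.64). *2310002F09Rik*, which overlaps *Klk10* on the other strand, had 117 and 5 UMIs, a log2 ratio of -4.27 (-5.92 to -3.00). It starts 17.0 kb downstream of the start of *Klk10*. Its span thus also holds the starts of *Klk9* (at 10.9 kb) and *Klk8* (at 16.5 kb). The methods state default counting settings, under which reads are assigned by strand, but the setting itself is not written out, and the values of these overlapping genes are given with that limit. In venous-like VECs of the Control library *2310002F09Rik* had 13 UMIs where *Klk10* had 8 and *Klk8* had 53. *Klk13* (23 and 1 UMIs) and *Klk9* (16 and 2 UMIs) were below the minimum.

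**Figure D5:**
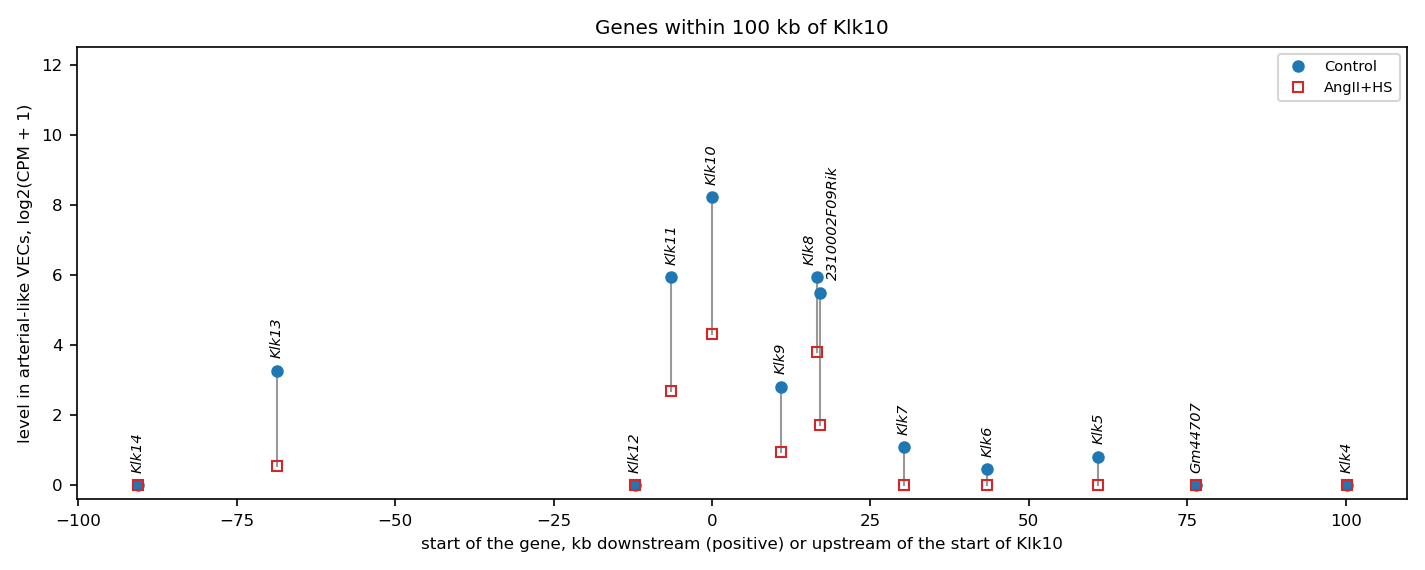
Level in arterial-like VECs, as log2(CPM + 1), of *Klk10* and the genes within 100 kb of it, placed by the distance of their start from that of *Klk10* in kb (blue circles Control, open red squares AngII+HS). *Klk11*, *Klk8* and *2310002F09Rik* are lower in the AngII+HS library together with *Klk10*, and *Klk14*, *Klk12*, *Klk4* and *Gm44707* had no UMI in either library.

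The kallikrein neighbours differed in where they were found. *Klk11* was nearly limited to arterial-like VECs among the cell types compared, with 3 UMIs in venous-like and none in capillary-like VECs of the Control library. *Klk8* stood as high in venous-like VECs (60.3 CPM in the Control, 18.8 CPM in the AngII+HS library) as in arterial-like ones, and it was also found in T and B cells (41.7 and 25.4 CPM). In Control arterial-like cells *Klk11* was detected in 34.6% of the 257 cells with a *Klk10* UMI and in 11.5% of the 235 without one, but the former were also deeper (median 5160 against 3551 UMIs). Around the other genes, *Cpped1* near *Shisa9* had a log2 ratio of -1.02. None of the 4 genes measured near *Ppl* and none of the 3 near *Atp2b2* was at least 2-fold lower, where 3.01% of all genes were. So few genes cannot be told apart from that share. No gene near *Fam107a* reached the minimum, where *Acox2* had 25 and 0 UMIs and *Kctd6* 26 and 17. Also below it were *Gm44167*, which overlaps *Atp2b2* (16 and 5 UMIs), and *Rogdi* near *Ppl* (10 and 9 UMIs).

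Relatives of the 5 genes in arterial-like VECs are given as a description. The 5 were chosen by the lowest ratios in VECs, so smaller differences in their relatives follow largely from that choice. Of all genes measured in arterial-like VECs, 3.01% were at least 2-fold lower. The 4 measured plakins include *Ppl*, and of the others *Plec* had a log2 ratio of -0.91, *Macf1* one of -0.26 and *Dst* one of -0.08. *Shisa5* had a log2 ratio of -0.09. The 6 measured calcium pumps include *Atp2b2*. Of the others, *Atp2a3*, a pump of the endoplasmic reticulum, was at least 2-fold lower, with a log2 ratio of -1.16. *Atp2b1* and *Atp2a2* had log2 ratios of -0.05 and -0.09. *Fam107b*, the relative of *Fam107a*, had 139 and 188 UMIs and a log2 ratio of 0.72 (0.39 to 1.05).

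Gene groups known to respond to flow and to glucocorticoids are described beside *Klk10* and *Fam107a*. The data used here hold no measure of flow or of glucocorticoids, and a link to the 5 genes was not tested. The lists were chosen with earlier results of these data known, so their counts are descriptions. Of 9 measured flow-induced genes, 2 were at least 2-fold lower (3.01% of all genes were) and none at least 2-fold higher (median log2 ratio -0.37), the lowest being *Thbd*, the thrombin receptor thrombomodulin, at -1.27 and *Nos3*, the endothelial nitric oxide synthase, at -1.05, and the highest *Cyp1b1* at 0.32 and *Hmox1* at 0.89. Between these lay *Klf2* (2248 and 1267 CPM) and *Klf4* (1409 and 947 CPM), with log2 ratios of -0.83 and -0.57. Of 10 genes of disturbed flow, 7 were at least 2-fold higher, where 4.77% of all genes were, with a median of 1.35. The highest were the chemokine *Ccl2* at 3.27 and *Angpt2* at 2.58, and the lowest *Ccn1* at -0.27 and *Icam1* at -0.20. Of 9 glucocorticoid-induced genes, 3 were at least 2-fold lower, against 3.01% of all genes (median -0.58), with *Fkbp5* at -1.57 and *Tsc22d3* at -1.47 lowest and *Nfkbia* at 0.20 and *Errfi1* at 0.25 highest.

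Genes of arterial and of general endothelial identity are set beside the shares of all genes in arterial-like VECs. Of all genes, 3.01% were at least 2-fold lower and 4.77% at least 2-fold higher. A count of 0 lower in lists of this size lies near the first share, so nothing is read from it. The lists of identity genes were likewise chosen with earlier results of these data known. None of 19 measured genes of arterial identity was at least 2-fold lower, 5 were at least 2-fold higher and 6 had a log2 ratio below 0 (median 0.21). They ranged from *Notch1* at -0.33 and *Jag1* at -0.12 to *Fbln5* at 1.65 and *Hey1* at 1.88. Of this list, *Gja5*, *Bmx*, *Efna5*, *Gja4*, *Efnb2*, *Sox17*, *Hey1* and *Fbln5* were also markers that named the arterial-like cells. Their levels in these cells were therefore partly set by the naming. None of 15 pan-endothelial genes was at least 2-fold lower, 3 were at least 2-fold higher and 5 had a log2 ratio below 0 (median 0.16). They ranged from *Tek* at -0.62 and *Egfl7* at -0.42 to *Kdr* at 2.19 and *Emcn* at 3.19. *Kdr* was also in the capillary marker list and *Emcn* and *Vwf* in the venous one, so they are part of the sums of those markers given above. *Cdh5*, *Pecam1*, *Egfl7*, *Flt1*, *Esam*, *Tie1* and *Mmrn2* were among the markers that named the VECs, so these values are not independent of the naming. By gene length, with all measured genes divided into 5 equal groups by span, the median log2 ratio was 0.10 in the shortest and 0.03 in the longest group, and 2.79% and 4.12% of their genes were at least 2-fold lower. *Klk10* lay in the shortest group, *Shisa9* and *Atp2b2* in the longest.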

How the data were processed

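The sources name Cell Ranger (cellranger-8.0.1 in the file header) for the counts of UMIs, which the authors deposited without normalization. The labels name the build mm10, and the methods name GRCm39. Coordinates here are those of GRCm39. The labels name Seurat 4.0.5 for the study's own clustering. The 5 genes, the gene lists and the markers were chosen with earlier results of these data known.

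A barcode was kept if it had 500 UMIs or more, 200 genes or more and less than 20% of its UMIs from mitochondrial genes. The highest Scrublet scores (scanpy 1.11.5) were removed as doublets at 0.8% per 1000 cells, 9.03% of Control cells and 19.6% in AngII+HS. Seurat 5.3.0 integrated both libraries (2000 variable genes, 30 components, resolution 0.8). Subclusters of VECs used 20 components and resolution 0.4, with the 5 genes and subtype markers left out of the features. Each cluster took the name of its best marker list, scored with 5 CPM added, if 3 or more of the markers were found in 10% of its cells or more. Clusters stayed unnamed where the top 10 genes held any marker of a different type and at least as many of these as of their own. Totals were 86618995 UMIs for Control and 117146856 UMIs for AngII+HS.

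UMIs were summed over the cells of a type in each library and divided by their total (CPM). Intervals are 95% exact Poisson or Clopper-Pearson intervals, and those of ratios are exact conditional ones. With 1 library per condition no p-value was computed. A gene was ranked in VECs with 200 UMIs or more in all and detection in 10% of VECs or more in either library, and measured in other cell types from 50 UMIs. Named besides the 5 genes were the 3 most similar genes for each (groups of 50 cells or more, 1 CPM added), the first gene outside the choice, and the 2 highest and 2 lowest of each list. Leading genes of clusters, markers, chromosomal neighbours, *Klf2* and *Klf4* were named in addition, after their values were seen. The calculation of the ratios and their intervals was checked on simulated Poisson counts. These hold no differences between animals, preparations or cells, so the check cannot speak to such spread. Alternatives were no removal of doublets or a larger removal, a stricter filter on cells, libraries merged as they were, resolutions 0.4 and 1.2, other subclustering of VECs, a marker gate in place of clusters, totals without mitochondrial genes, TMM factors (edgeR 4.0.16), equal weight per cell, subtraction of the level in T and B cells, thinning to 1000 UMIs and 0.5 UMIs added. Software was Python 3.11.15 with pandas 2.3.3, scipy 1.17.1, numpy 2.4.6 and matplotlib 3.10.9, and R 4.3.3.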

Additional observations from a re-analysis of the deposited data

How the results depend on the processing

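All 5 genes stayed at least 2-fold lower in arterial-like VECs under each alternative run. Removing double the doublets took cells unequally. It left 489 of 492 arterial-like cells in the Control and 284 of 402 in the AngII+HS library. Of 145 values of single genes under the alternatives, 132 stayed within the counting interval of the value reported, 13 left it and 0 changed sign, and they ranged from -5.18 to -1.61 on the log2 scale. Resolutions 0.4 and 1.2 gave the same numbers of VECs and arterial-like cells and the same values as the main run. TMM factors and totals without mitochondrial genes shift all genes alike, by -0.02 to -0.05. These alternatives could hardly leave the interval, so they add little to the 132. The median log2 ratio of the 5 genes in VECs (-3.36) was -2.74 with cells thinned to 1000 UMIs and -2.72 with the subtype shares of the Control library, an alternative chosen after seeing the data. That in arterial-like VECs (-2.55) was -2.08 with a marker gate in place of clusters and -2.01 with thinned cells. The log2 ratio of the share of arterial-like cells with a UMI of any gene (-2.14) was -2.58 with totals without mitochondrial genes, and -1.42 in cells not thinned. Taken as the mean over all possible draws it was -2.31 with all UMIs and -2.32 without mitochondrial genes, so the first of these differences lies in the draw. These means and the value without thinning were added after seeing the data. The share of Control VEC UMIs in arterial-like cells (92.8%) was 89.3% without doublet removal, 91.7% with equal weight per cell, 73.2% with VEC subclustering at resolution 0.8 (92.8% when an unnamed *Klk10*-led subcluster was counted, chosen after seeing the data) and 24.4% with the gate, which kept only 144 Control cells as arterial-like. No paired analysis was possible because each condition has 1 library. Subclustering gives no other VEC median, and TMM and equal weight no other share of cells, so these have no value. Counts of 24 to 42 UMIs limit the AngII+HS values of *Ppl*, *Klk10* and *Shisa9* most.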
